A study of Homo sapiens with 22 samples.

Results

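The genes described here encode regulators and core factors of pre-mRNA splicing, measured by RNA-seq in MDA-MB-231, a human cell line of triple-negative breast cancer. They were chosen by name, as the protein-coding genes named SRSF, TRA2, HNRNP, PTBP, SF3A, SF3B or U2AF, and the rule used no measured value. The set holds 55 of the 60669 genes listed in each of 2 deposited tables and 49 of the 14954 listed in the third. In the 2 larger tables it comprises 12 SRSF genes, 2 TRA2, 3 PTBP, 3 SF3A, 6 SF3B and 2 U2AF genes, and HNRNP genes for the rest. Levels are in FPKM, fragments per kilobase of transcript, scaled to the fragments of each library. A gene was tested where it reached 1 FPKM in at least 2 libraries of its table, which 50, 51 and 49 of the members did. HNRNPCL1, HNRNPCL2, HNRNPCL3 and HNRNPCL4, relatives of HNRNPC, did not pass in either larger table. SRSF12 passed in only one of them.

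SR proteins carry an RNA-binding domain and a tail rich in arginine and serine, and they mostly promote the use of the exons they bind. TRA2 proteins are close relatives of theirs. HNRNP proteins coat nascent transcripts and often block splice sites, so that the balance of SR and HNRNP proteins sets which exons are kept. PTBP1 binds pyrimidine-rich tracts and represses exons, among them an exon of its paralog PTBP2 whose skipping marks PTBP2 mRNA for nonsense-mediated decay. The U2AF subunits read the 3′ splice site, and the SF3A and SF3B complexes within the U2 snRNP hold the branch point. Several of these proteins, HNRNPC and HNRNPA2B1 among them, have also been described as readers of m6A, the methyl mark that METTL3 writes on mRNA.

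The series holds 22 libraries in 11 groups of 2, all of MDA-MB-231 with the genotype label WT, and its title concerns BET bromodomain inhibition and the m6A writer complex. The knockdown table has the groups B5, a name the labels do not explain, shM3, in which METTL3 was low, and shM3 cells given back METTL3-WT or METTL3-CD, all with a time of 2 to 3 months. The add-back groups are called shM3_WT and shM3_CD below, and they carry the knockdown too. The DMSO table has DMSO, JQ1, MOLIB (here Molib) and I-BET151, each drug at 0.5 µM, for 3 days. The third table has CTRL, JQ1 at 0.5 µM and MW_JQ1, which also received JQ1 at 0.5 µM, for 3 days. What MW stands for is not explained in the labels. Cells received lentivirus, drugs or both, per the labels. JQ1 and I-BET151 are inhibitors of BET proteins built on unrelated scaffolds, and the labels give Molib no longer name. No label states that paired libraries are separate cultures. A p-value here reflects the spread between the 2 libraries of a group, pooled over all groups of the table and drawn toward that of genes of similar level. This spread may be technical.

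METTL3 dropped from 20.1 and 23.8 FPKM (B5) to 4.39 and 4.80 (shM3) and stood at 312 and 311 (shM3_WT) and at 277 and 270 (shM3_CD). HEXIM1, a gene that BET inhibitors are known to raise, went from 26.5 and 29.4 FPKM (DMSO) to 73.8 and 76.7 (JQ1) and 72.9 and 69.6 (Molib). It stood at 10.3 and 6.37 in the pair labelled I-BET151, which goes against that label, so these are called the libraries labelled I-BET151 throughout. In the third table HEXIM1 read 63.4 and 52.0 (CTRL), 85.3 and 77.0 (JQ1) and 46.4 and 55.0 (MW_JQ1). MYC, also read as a check, had 5.25 and 3.87 FPKM (DMSO), 5.93 and 3.43 (JQ1), 4.44 and 5.85 (Molib) and 6.13 and 5.33 (labelled I-BET151). It therefore did not fall there. In the third table MYC read 35.8 and 45.4 (CTRL), 14.4 and 35.5 (JQ1) and 6.55 and 6.35 (MW_JQ1). In B5 it read 3.70 and 24.6. The 6 markers of MDA-MB-231 were present in the 3 tables, and ESR1, PGR and CDH1 were below 1 FPKM in each library of the 2 larger tables. ERBB3 and EPCAM, also looked for as low genes of this line, were above 1 FPKM in each of those libraries. ERBB3 ranged from 1.69 to 4.68 FPKM in the knockdown table and from 1.32 to 3.55 in the DMSO table. EPCAM ranged from 5.22 to 10.9 and from 1.08 to 6.02, in the same order. Read totals are unknown, because only FPKM are given, so no counting interval could be set. In B5 replicate 2 the FPKM sum was 8657370, and 423171 without PIDD1, which was left out of shares of that library. Library pairs had correlations of 0.977 to 0.987 over genes, except for CTRL at 0.746 and the JQ1 of its table at 0.777. In the same table CTRL replicate 2 and JQ1 replicate 1 correlated with each other at 0.780, above either within-group value, and every result from those 4 libraries is given on that footing.

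Promoters of 4 members are printed because their mRNAs carry the main changes below. SRSF4 fell with the METTL3 knockdown and rose with METTL3-WT add-back, and HNRNPD fell in both kinds of experiment. U2AF1 fell in each drug group of the DMSO table. PTBP2 rose in the libraries labelled I-BET151, where PTBP1 fell furthest. Sequences are RefSeq's on GRCh38.p14, from the 250 bases before the first listed start, of which the longest stretch free of annotated UTR bases is printed, 5′ to 3′ on the gene's strand. They cover chr1:29181988-29182150 (minus strand) for SRSF4, chr4:82373992-82374118 (minus) for HNRNPD, chr21:43107588-43107820 (minus) for U2AF1 and chr1:96722388-96722637 (plus) for PTBP2. The HNRNPD and PTBP2 stretches lie inside the gene spans given below, downstream of the outermost annotated start of each gene. The SRSF4 and U2AF1 stretches lie outside those spans. Capitals mark letters of the motifs searched on both strands, which were the E-box (CACGTG), the CCAAT box, the GC box (GGGCGG), the ETS core (CCGGAAG) and the TATA box (TATAAA).
SRSF4: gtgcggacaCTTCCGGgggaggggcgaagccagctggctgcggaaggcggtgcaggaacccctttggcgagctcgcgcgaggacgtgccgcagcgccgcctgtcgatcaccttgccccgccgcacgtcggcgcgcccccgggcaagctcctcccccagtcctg
HNRNPD: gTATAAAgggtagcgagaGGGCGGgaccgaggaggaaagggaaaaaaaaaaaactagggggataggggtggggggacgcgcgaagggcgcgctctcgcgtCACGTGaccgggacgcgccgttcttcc
U2AF1: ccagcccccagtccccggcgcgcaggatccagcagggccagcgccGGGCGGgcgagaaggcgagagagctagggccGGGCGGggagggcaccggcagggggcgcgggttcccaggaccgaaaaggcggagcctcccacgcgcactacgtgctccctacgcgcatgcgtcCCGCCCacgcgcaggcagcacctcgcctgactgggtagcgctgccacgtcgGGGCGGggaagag
PTBP2: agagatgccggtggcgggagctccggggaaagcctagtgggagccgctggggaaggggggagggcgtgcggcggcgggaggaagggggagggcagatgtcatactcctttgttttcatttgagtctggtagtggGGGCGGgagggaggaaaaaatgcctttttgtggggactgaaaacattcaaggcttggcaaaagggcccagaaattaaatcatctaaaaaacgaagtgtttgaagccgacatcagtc

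The printed stretches hold an ETS core in SRSF4, a TATA box, a GC box and an E-box in HNRNPD, several GC boxes in U2AF1 and a single one in PTBP2. The whole window of 250 bases adds a GC box in SRSF4 and an ETS core in HNRNPD, so that both genes hold both motifs, and each of the 4 windows holds a GC box. Of the 55 members, 49 matched a RefSeq promoter of 250 bases, and 45 of these were tested in the knockdown table. Among the 45, 71.1% held a GC box, 40% CCAAT, 26.7% the ETS core, 15.6% the E-box and 11.1% TATAAA. Over the 10103 promoters of all genes tested there the shares were 67.6%, 35.4%, 16.5%, 8.93% and 5.27%, in the same order. A match says only that the letters occur in the window.

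By level, the HNRNP genes led. HNRNPK, a poly(C)-binding protein, averaged 318 FPKM over the 8 libraries of the knockdown table, with a range of 277 to 355. HNRNPA2B1 followed at 248 (180 to 292) and HNRNPC at 246 (194 to 316), 2 ranges that overlap each other and that of HNRNPK. SRSF9 was the highest SR gene at 215 (155 to 270), followed by HNRNPA1 at 179, HNRNPL at 172 and PTBP1 at 145 FPKM. SRSF4 at 18.4, PTBP3 at 16.2 and SRSF8 at 14.4 FPKM were low, and PTBP2, mainly a neuronal protein, averaged 4.05. In each of the B5, shM3, add-back, DMSO, JQ1 and Molib libraries of the 2 larger tables PTBP2 was 1.79% to 3.73% of the PTBP1 level. Summed over members, FPKM made up 0.9145% and 0.9754% of the B5 libraries, 0.8205% and 0.8231% of the shM3 pair, 1.026% and 1.024% with METTL3-WT and 0.8520% and 0.8532% with METTL3-CD. The summed level was thus lowest in shM3 and highest in shM3_WT, with no overlap between those groups.

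With METTL3 knocked down (shM3 against B5), 16 of the 50 members tested fell and 3 rose (limma, Benjamini-Hochberg adjusted p below 0.05 over all 14638 genes). The share called, 38%, was that of all genes, 37.8%, with 19.9% of all genes lower and 17.9% higher. The median change over members was -0.22 on the log2(FPKM + 1) scale, on which all log2 differences here stand, against 0.00 over all genes. Folds are ratios of mean FPKM instead. By role, 5 of 13 SR and TRA2 genes fell and 1 rose, 10 of 26 HNRNP and PTBP genes fell and 1 rose, and 1 of 11 SF3 and U2AF genes moved each way.

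SRSF4 (ENSG00000116350, chr1:29147743-29181987 on hg38, minus strand), an SR protein with a long arginine-serine tail, fell the most. Its level went from 23.9 and 25.5 FPKM (B5) to 9.04 and 9.87 (shM3), and stood at 25.7 and 25.9 (shM3_WT) and at 16.2 and 11.1 (shM3_CD). The shM3 pair lies below all other libraries, the shM3_WT pair just above B5, and shM3_CD lies between. The fall from B5 to shM3 was 2.61-fold (log2 -1.30, SE 0.16, adjusted p = 0.0010).

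SRSF1, the founding SR protein, followed the same order, with 35.48 and 30.02 FPKM (B5), 20.6 and 23.0 (shM3), 39.9 and 38.2 (shM3_WT) and 28.1 and 27.0 (shM3_CD). It fell 1.5-fold with the knockdown (log2 -0.56, SE 0.10, adjusted p = 0.0055). SRSF7, which is also an mRNA export adaptor, had 37.2 and 36.8 (B5), 24.5 and 27.6 (shM3), 41.4 and 40.5 (shM3_WT) and 35.0 and 39.2 (shM3_CD). Here both add-back pairs lay above shM3, and shM3_CD reached the B5 range. The fall was 1.42-fold (log2 -0.49, adjusted p = 0.0058).

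HNRNPD (ENSG00000138668, chr4:82352498-82374503, minus strand), also called AUF1 and known to bind AU-rich elements of unstable mRNAs, led the HNRNP genes. Its levels were 157 and 154 FPKM (B5), 95.5 and 94.8 (shM3), 152 and 182 (shM3_WT) and 91.8 and 109 (shM3_CD). The wild-type add-back returned to the B5 range, and the METTL3-CD pair overlapped shM3. It fell 1.63-fold with the knockdown (log2 -0.70, SE 0.11, adjusted p = 0.0034). HNRNPAB (ENSG00000197451, chr5:178204507-178211163, plus strand), a relative of HNRNPD, had 133 and 123 (B5), 94.6 and 96.6 (shM3), 189 and 195 (shM3_WT) and 103 and 112 (shM3_CD). Its wild-type add-back pair exceeded B5, unlike the METTL3-CD pair. The fall was 1.34-fold (log2 -0.42, adjusted p = 0.0053).

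SRSF4, SRSF1, SRSF7, HNRNPD and HNRNPAB are the 5 of the 19 called members that passed under every alternative setting. HNRNPA1, which antagonizes SRSF1 at 5′ splice sites, fell from 194 and 205 to 150 and 135 FPKM (log2 -0.48, adjusted p = 0.017), up to 0.096 without B5 replicate 2 or shM3 replicate 2. HNRNPLL, a regulator of CD45 exons in lymphocytes, fell at a far lower level (log2 -0.44, adjusted p = 0.034, up to 0.17), a call lost without B5 replicate 1 or shM3 replicate 2, without a filter, under median scaling and with only the compared groups in the fit. The other members that fell were HNRNPUL1, HNRNPA2B1, HNRNPH1, HNRNPH3, HNRNPA0, HNRNPK, SRSF11, TRA2B and SF3B2.

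The 3 members that rose were SRSF9, PTBP3 and SF3B6. SRSF9 had 155 and 170 FPKM (B5), 239 and 241 (shM3), 209 and 270 (shM3_WT) and 207 and 232 (shM3_CD), so it stayed above B5 in both add-back groups. It rose 1.48-fold (log2 0.56, SE 0.13, adjusted p = 0.013), up to 0.063 without B5 replicate 1, shM3 replicate 1 or shM3 replicate 2. SF3B6, the SF3B subunit that contacts the branch-point adenosine, went from 130 and 107 to 161 and 159 (log2 0.44, adjusted p = 0.015, up to 0.070 without either shM3 library). PTBP3, a paralog of PTBP1 known from blood cells, went from 12.5 and 14.7 to 17.7 and 21.1 (log2 0.48, adjusted p = 0.043), and lost its call in 8 alternatives, among them each B5, shM3 or shM3_WT library left out, with an adjusted p of up to 0.20. Leaving out shM3 replicate 1 left 9 members called and leaving out shM3 replicate 2 left 6.

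**Figure D1:**
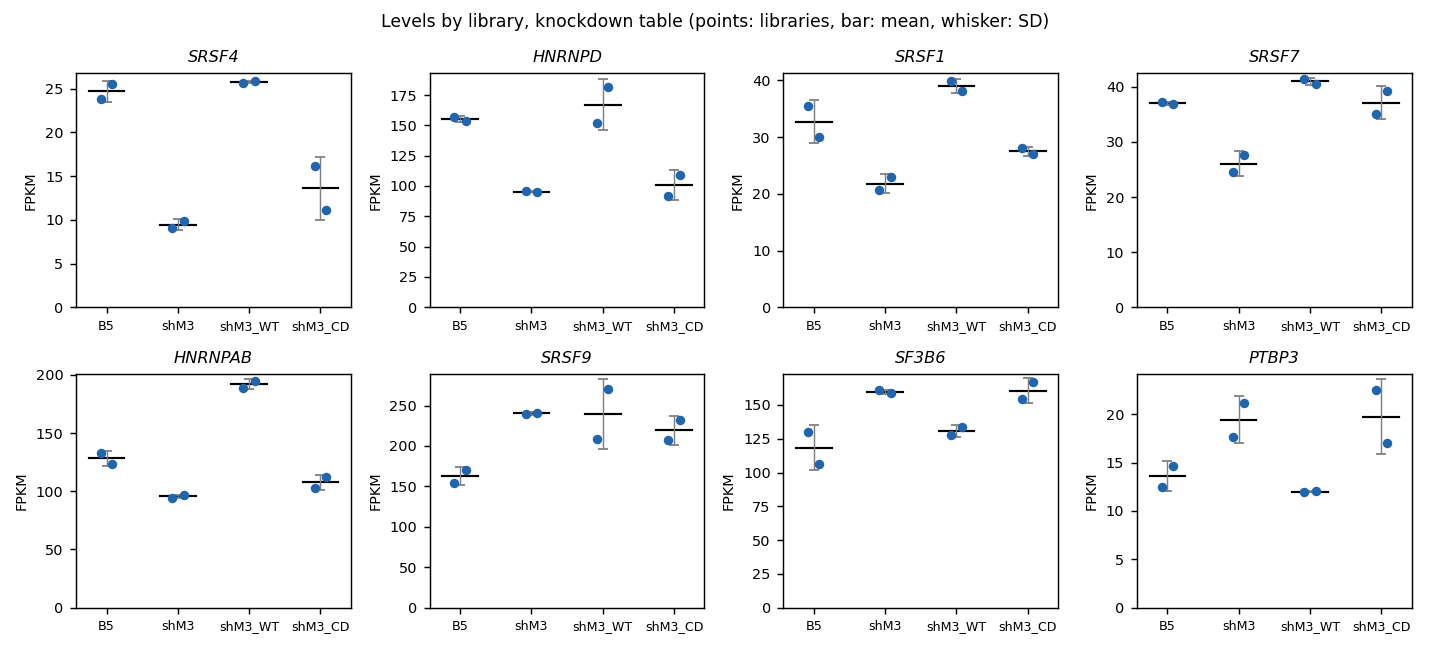
FPKM of 8 members in each library of the knockdown table, 1 panel per gene, with points for the 2 libraries of each group and a line at their mean. SRSF4, HNRNPD, SRSF1, SRSF7 and HNRNPAB are low in shM3 and return in shM3_WT, while SRSF9 stays above B5 in each of the other groups.

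Adding back METTL3-WT to shM3 cells raised 22 members and lowered 5 of 50. That is 54% called against 39.4% of all genes, of which 16.7% were higher and 22.7% lower. The median over members was 0.30 (log2), against -0.08 over all genes. Under trimmed-mean (TMM) or median scaling 27 rose and 4 fell. This comparison shares the shM3 libraries with the knockdown one, so their changes are not independent of each other.

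Among SR genes, SRSF4 rose 2.72-fold (log2 1.36, SE 0.16, adjusted p = 0.00080), SRSF1 1.79-fold (log2 0.81, adjusted p = 0.0011) and SRSF7 1.57-fold (log2 0.64). Among HNRNP genes, HNRNPAB rose 2.01-fold (log2 1.00, SE 0.08, adjusted p = 0.00014) and HNRNPD 1.75-fold (log2 0.80, adjusted p = 0.0018). HNRNPLL rose by 0.60 on the log2 scale (adjusted p = 0.010, up to 0.061 without shM3 replicate 2 or shM3_WT replicate 1). TRA2B, SRSF2, and the core factors SF3A3, SF3B2, SF3B3 and U2AF2 also rose under every alternative. U2AF2, the large U2AF subunit that binds the polypyrimidine tract, stood at 102 and 98.9 FPKM in shM3 and at 131 and 128 in shM3_WT. SF3B3 stood at 22.1 in both shM3 libraries and at 33.3 and 32.1 in shM3_WT.

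The members that fell on wild-type add-back were PTBP3, SF3B1, SRSF8, HNRNPH2 and SRSF5. PTBP3 was at 12.0 FPKM in both shM3_WT libraries, below the B5 pair and both shM3 libraries (log2 -0.65, adjusted p = 0.015, up to 0.085 without shM3 replicate 2 or either shM3_WT library). SF3B1 (chr2:197389784-197435091, minus strand), the branch-point subunit that is mutated in several cancers, went from 61.0 and 60.2 to 43.8 and 39.7 (log2 -0.53, adjusted p = 0.011, up to 0.064 without either shM3 library or shM3_WT replicate 2). SF3B1 thus moved opposite to SF3B2 and SF3B3 of the same complex. HNRNPH2 fell by 0.39 on the log2 scale (adjusted p = 0.0062) under every alternative. SRSF8 fell by 0.41 (adjusted p = 0.019, up to 0.096 without either shM3 library or shM3_WT replicate 2). SRSF5 fell by 0.27 (adjusted p = 0.031) and lost its call under TMM or median scaling, with only the compared groups, and without shM3 replicate 1 or any single add-back library (up to 0.17). In all, 12 of the 27 calls passed every alternative, and leaving out shM3 replicate 2 or shM3_WT replicate 2 left 15 and 16.

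Adding back METTL3-CD raised 2 members, SRSF7 and SRSF11, and lowered none, against 11.4% of all genes called (6.82% higher and 4.59% lower). At an unadjusted p below 0.05, 12 of the 50 members and 4114 of the 14638 genes passed. SRSF7 rose by 0.49 (adjusted p = 0.018, up to 0.10 without shM3 replicate 1 or shM3_CD replicate 2, and lost too with only the compared groups). SRSF11, a large SR-related protein, went from 33.0 and 33.4 to 51.1 and 42.2 FPKM (log2 0.47, adjusted p = 0.029, up to 0.13 without either shM3 library or shM3_CD replicate 1, and lost too without a filter, with only the compared groups and with the replicate block). The 3 members of highest level did not pass: HNRNPK read 293 and 277 in shM3 and 297 and 305 in shM3_CD, HNRNPA2B1 212 and 180 against 250 and 269, and HNRNPC 198 and 194 against 229 and 306. Without either B5 library 5 members were called, without shM3 replicate 1 none, and without shM3 replicate 2 there was 1.

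The add-back groups were compared with each other directly. shM3_WT exceeded shM3_CD in 19 of 50 members and was lower in 5, which is 48% called against 25.9% of all genes (10.2% higher and 15.7% lower). The median over members was 0.18 (log2) and that over all genes -0.08. TMM scaling gave 21 higher and 1 lower, and median scaling 23 and 1. Of the 11 SF3 and U2AF genes 7 were higher in shM3_WT, including the 3 SF3A genes and both U2AF genes. METTL3 itself differed little between the groups (312 and 311 against 277 and 270 FPKM), so the comparison sets similar METTL3 mRNA levels side by side.

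SRSF4 was 1.89-fold higher with METTL3-WT than with METTL3-CD (log2 0.89, SE 0.16, adjusted p = 0.0081). HNRNPAB was 1.78-fold higher (log2 0.83, adjusted p = 0.0010) and HNRNPD 1.66-fold (log2 0.72, adjusted p = 0.0052). HNRNPL, a CA-repeat binder, read 196 and 207 against 146 and 143 FPKM. With U2AF2, these are the 5 members whose difference passed every alternative. SF3B3 (log2 0.50, adjusted p = 0.0075) lost its call only without shM3_CD replicate 2 (0.051). HNRNPM (log2 0.57, adjusted p = 0.018) lost it without shM3_WT replicate 1 or either shM3_CD library (up to 0.091). HNRNPU, a chromatin-bound scaffold protein, read 184 and 170 against 133 and 81.2 (log2 0.76, adjusted p = 0.033), up to 0.13 without any single shM3 or shM3_WT library, and lost too without a filter or with only the compared groups. PTBP3 was lower with METTL3-WT (log2 -0.66, adjusted p = 0.021), up to 0.099 without either shM3_WT library or shM3_CD replicate 1, and lost too without a filter. SF3B1 (-0.39), SRSF11 (-0.36), SRSF5 (-0.31) and HNRNPH2 (-0.26) were lower too, and all 4 lost the call under both other scalings and with each shM3_WT library left out. Leaving out an shM3_WT library left 11 and 10 members called, and leaving out an shM3_CD library 8 and 10.

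**Figure D2:**
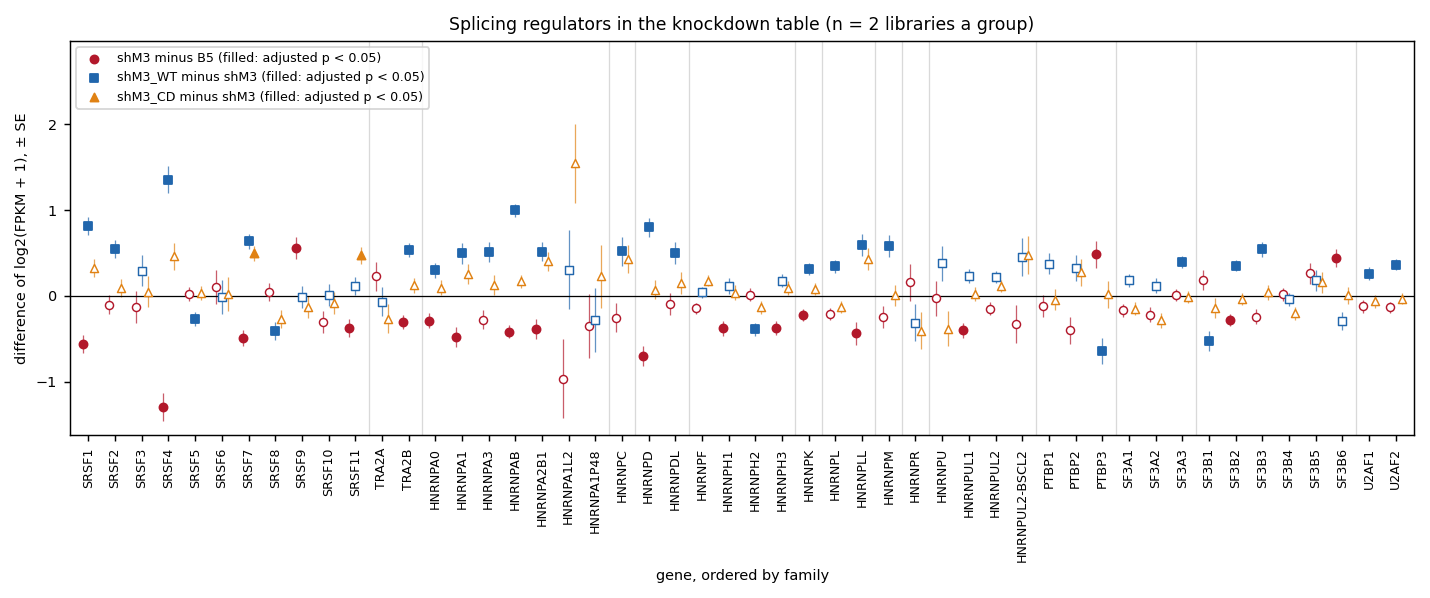
Log2 difference with its standard error for each member tested in 3 comparisons of the knockdown table, filled where called at an adjusted p below 0.05. Most filled points lie below 0 for shM3 against B5 (16 of 19) and above 0 for shM3_WT against shM3 (22 of 27).

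In the DMSO table JQ1 lowered 13 members and raised 5 of the 51 tested. The share called, 35.3%, was close to the 35.1% of all genes (20.6% lower and 14.5% higher). The median over members was -0.26 (log2), against -0.04 over all genes. Of 14 SR and TRA2 genes 3 rose and 1 fell, with a median of -0.03 (log2), while 8 of 26 HNRNP and PTBP genes fell and 1 rose, and 4 of 11 SF3 and U2AF genes fell and 1 rose. TMM scaling gave 7 higher and 11 lower, and median scaling 6 and 9.

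HNRNPD fell from 181 and 192 FPKM (DMSO) to 93.5 and 89.3 (JQ1) and to 86.9 and 88.3 (Molib), and it read 109 and 92.7 in the pair labelled I-BET151. All 6 drug libraries lay well below the DMSO pair. The fall was 2.04-fold with JQ1 (log2 -1.02, SE 0.10, adjusted p = 0.00051) and 2.13-fold with Molib (log2 -1.08, adjusted p = 0.00038). HNRNPF, which binds G-tracts, fell from 135 and 141 to 69.4 and 77.7 with JQ1 (1.87-fold, log2 -0.90, adjusted p = 0.0010) and to 72.0 and 72.4 with Molib (1.91-fold, adjusted p = 0.00085).

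U2AF1 (ENSG00000160201, chr21:43092956-43107587, minus strand), the small subunit that reads the AG of the 3′ splice site, had 87.0 and 85.5 FPKM (DMSO), 45.9 and 52.4 (JQ1), 52.6 and 49.0 (Molib) and 47.9 and 38.8 (labelled I-BET151). It fell 1.75-fold with JQ1 (log2 -0.80, SE 0.13, adjusted p = 0.0032). Of the 100-base stretches of its transcripts, 89.4% also occur in U2AF1L5, a near-identical copy, so its level is uncertain as to which copy it counts. SF3B4, an SF3B subunit, fell 1.57-fold with JQ1 (log2 -0.64, adjusted p = 0.0031) and HNRNPUL1 1.66-fold (log2 -0.73, adjusted p = 0.0012). PTBP1 fell from 211 and 212 to 144 in both JQ1 libraries (1.46-fold, log2 -0.55, adjusted p = 0.0046).

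The 5 members that rose with JQ1 were SF3B1, SRSF11, SRSF5, HNRNPH1 and SRSF10. SRSF11 (chr1:70205682-70253052, plus strand) went from 44.8 and 40.6 FPKM to 66.2 and 77.7 (1.69-fold, log2 0.74, adjusted p = 0.0066). SF3B1 went from 38.2 and 34.2 to 73.8 and 66.3 (1.93-fold, log2 0.93, adjusted p = 0.010, up to 0.064 without DMSO replicate 2 or JQ1 library a). HNRNPH1 (chr5:179614178-179634784, minus strand), a paralog of HNRNPF with which it shares G-tract binding, went from 89.2 and 86.4 to 120 in both libraries (log2 0.45, adjusted p = 0.0081, up to 0.056 without DMSO replicate 2 or either JQ1 library). HNRNPH1 and HNRNPF thus moved in opposite directions under JQ1.

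SRSF5 rose by 0.57 on the log2 scale (adjusted p = 0.033, up to 0.17 without either DMSO library or JQ1 library a, and lost too without a filter). SRSF10, a repressor when dephosphorylated, rose by 0.28 (adjusted p = 0.047, up to 0.17), a call lost without any single DMSO, Molib or JQ1 library. SRSF8 fell by 0.68 (adjusted p = 0.013, up to 0.085 without DMSO replicate 2 or either JQ1 library). HNRNPD, HNRNPF, HNRNPUL1, PTBP1, SF3B4, SRSF11 and U2AF1, 7 of the 18, passed every alternative. Leaving out a DMSO library left 11 and 7 members called, and leaving out a JQ1 library 8 and 9. Without either or both of the libraries labelled I-BET151 28 members were called, and without both of them 7 were higher and 21 lower.

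Molib lowered 20 members and raised only SRSF11 among the 51, with 35.3% of all genes called (20.5% lower and 14.8% higher) and a median of -0.29 over members against -0.03 over all genes. The 20 included 12 of 26 HNRNP and PTBP genes, 5 of 11 SF3 and U2AF genes and 3 of 14 SR and TRA2 genes. HNRNPA2B1, an m6A reader by several reports, fell from 285 and 305 FPKM to 167 and 163 (1.79-fold, log2 -0.83, adjusted p = 0.0037). PTBP1 fell to 131 and 115 (1.71-fold, log2 -0.77, adjusted p = 0.0010) and U2AF1 1.70-fold (log2 -0.75, adjusted p = 0.0039). With HNRNPD, HNRNPF, HNRNPUL1, SF3A3 and SF3B4, these are the 8 of 21 calls that passed every alternative.

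Further Molib calls rested on single libraries. HNRNPR read 114 and 70.3 in DMSO and 40.3 and 44.7 with Molib (log2 -1.06, adjusted p = 0.044, up to 0.22 without DMSO replicate 1 or either Molib library, and lost too without a filter or under median scaling). HNRNPA1P48, a copy of HNRNPA1 with a low level, fell by 0.96 (adjusted p = 0.014, up to 0.087 without DMSO replicate 2 or either Molib library). SRSF11 rose to 62.3 and 62.6 (log2 0.54, adjusted p = 0.022, up to 0.12 without any single DMSO or Molib library). Leaving out a DMSO library left 13 and 9 members called, and leaving out a Molib library 10 and 11.

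JQ1 and Molib were also set against each other at the same dose and time, 1 of 3 pairs of drugs compared. None of the 51 members passed, nor did any of the 14936 genes tested (0% called, by limma). At an unadjusted p below 0.05 there were 6 members and 1227 genes. For HNRNPD the difference JQ1 minus Molib was 0.06 on the log2 scale (95% interval -0.18 to 0.30), for HNRNPF 0.02 (-0.23 to 0.27) and for U2AF1 -0.05 (-0.34 to 0.25). The 3 members of highest level in that table gave 0.13 for HNRNPK (-0.06 to 0.32), -0.19 for HNRNPC (-0.62 to 0.23) and -0.00 for SRSF9 (-0.38 to 0.37). SRSF10, at 42.2 and 42.5 FPKM in JQ1 and 28.4 and 29.7 in Molib, had an interval of 0.32 to 0.74 around 0.53 with an adjusted p of 0.39. SF3B1 had one of 0.08 to 1.00 and HNRNPH1 one of 0.12 to 0.54. Intervals lay wholly within 0.5 of 0 for 23 of the 51 members, so for the other 28 these data do not bound the difference to that size.

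The libraries labelled I-BET151 showed the deepest fall of the set: 28 of 51 members were lower and PTBP2 alone was higher than in DMSO. That is 56.9% called against 28.0% of all genes (14.1% lower and 13.9% higher), with a median of -0.67 over members against -0.00 over all genes. Lower members were 17 of 26 HNRNP and PTBP genes, 8 of 11 SF3 and U2AF genes and 3 of 14 SR and TRA2 genes. Summed over members, FPKM made up 0.714% and 0.649% of these libraries, against 1.12% of both DMSO libraries, 0.936% and 0.940% of JQ1 and 0.877% and 0.869% of Molib. These shares are relative to each library and do not give the amount of RNA per cell.

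PTBP1 (ENSG00000011304, chr19:797075-812327, plus strand) fell furthest, from 211 and 212 FPKM to 36.6 and 35.2 (5.88-fold, log2 -2.52, SE 0.09, adjusted p = 2e-05). Its paralog PTBP2 (ENSG00000117569, chr1:96721665-96823738, plus strand) had 4.44 and 4.52 (DMSO), 3.98 and 3.23 (JQ1), 2.35 and 3.61 (Molib) and 12.4 and 17.4 (labelled I-BET151). The pair labelled I-BET151 stands well above the other 6 libraries. The rise over DMSO was 3.33-fold (log2 1.52, SE 0.21, adjusted p = 0.0024), and PTBP2 there reached 33.9% and 49.5% of the PTBP1 level. PTBP3 read 10.6 and 15.0 in DMSO and 7.57 and 11.9 in these libraries, 2 ranges that overlap.

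HNRNPA1 fell from 241 and 246 FPKM to 107 and 86.6 (2.52-fold, log2 -1.33, adjusted p = 0.00052). SF3B2 fell from 125 and 116 to 60.5 and 53.9 (2.11-fold, log2 -1.07, adjusted p = 0.00077), while JQ1 and Molib left it at 122, 112, 123 and 111. U2AF2 likewise had 158 and 163 (DMSO), 165 and 163 (JQ1) and 169 and 167 (Molib), but 93.8 and 68.3 here (1.98-fold lower, log2 -0.99, adjusted p = 0.0030). U2AF1 (log2 -0.98), HNRNPUL1 (log2 -1.05) and HNRNPA1P48 (log2 -1.36) fell as well. Of the 29 calls 16 passed every alternative, including every member named for these libraries so far except PTBP3, and leaving out DMSO replicate 2 left 17 calls.

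**Figure D3:**
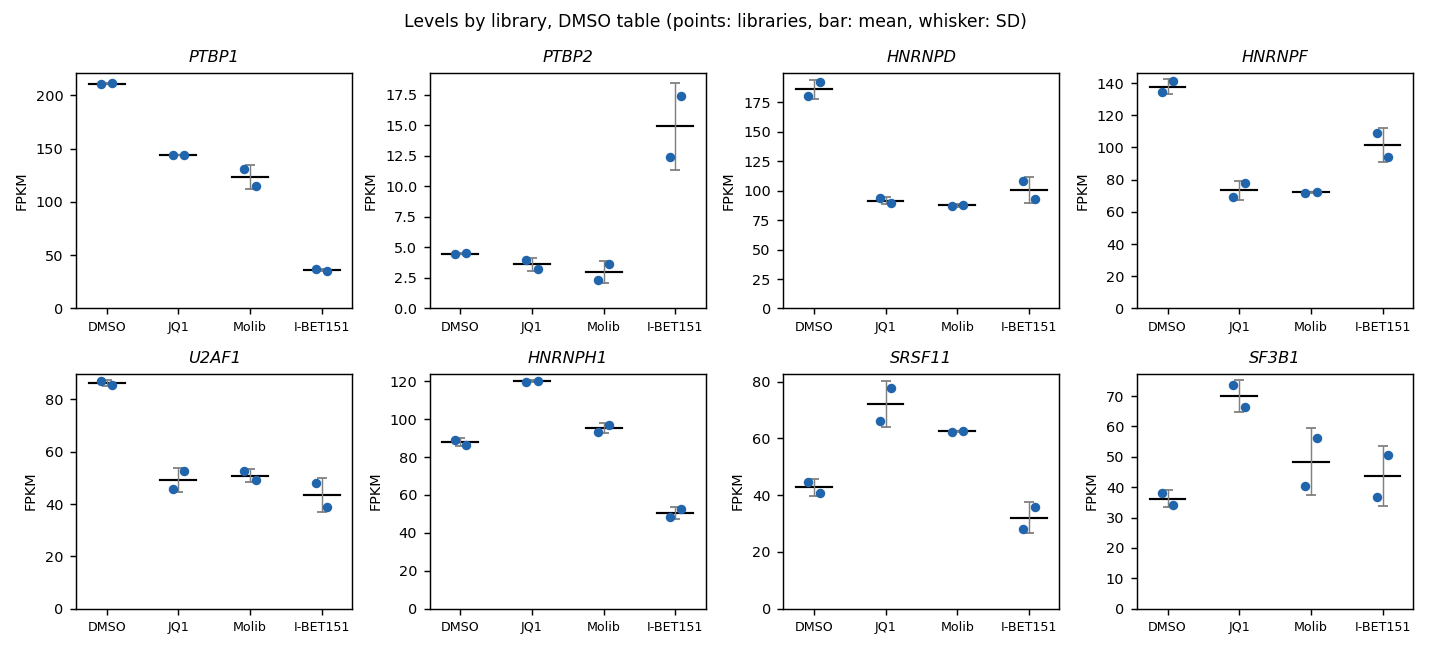
FPKM of 8 members in each library of the DMSO table, 1 panel per gene, with points for the 2 libraries of each group and a line at their mean. HNRNPD, U2AF1 and PTBP1 are below DMSO in all 6 drug libraries. PTBP1 is lowest, at 36.6 and 35.2, in the libraries labelled I-BET151. PTBP2 is above DMSO in those libraries alone, at 12.4 and 17.4.

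The libraries labelled I-BET151 were also tested directly against JQ1 and against Molib for the same members. Against JQ1, the libraries labelled I-BET151 were lower in 22 members and higher in 3 (44.6% of all genes called, 20.1% lower and 24.6% higher). Against Molib they were lower in 16 and higher in 3 (43.5% of all genes, 19.9% lower and 23.6% higher). PTBP1 was 4.02-fold lower than with JQ1 (log2 -1.98, adjusted p = 1.7e-05) and 3.43-fold lower than with Molib (log2 -1.75, adjusted p = 2.8e-05). PTBP2 was 4.14-fold higher than with JQ1 (log2 1.78, adjusted p = 0.00058) and 5.01-fold higher than with Molib (log2 2.00, adjusted p = 0.00036).

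HNRNPH1, at 48.3 and 52.9 FPKM in these libraries, was 2.37-fold lower than with JQ1 (log2 -1.23, adjusted p = 7.5e-05). SRSF11 was 2.25-fold lower than with JQ1 (log2 -1.15) and 1.95-fold lower than with Molib (log2 -0.95, adjusted p = 0.0016). SF3B2 and U2AF2 were lower by 1.02 against JQ1, and by 1.02 and 1.06 against Molib. HNRNPF was higher than with either drug (log2 0.46 and 0.48, adjusted p = 0.011 and 0.0091), the former lost without JQ1 library a (0.080). SRSF8 was higher too (log2 0.55 and 0.52), but lost both calls without I-BET151 replicate 2 or a library of the other drug (up to 0.13), and that against Molib also without a filter or with only the compared groups. HNRNPU (log2 -0.99) and HNRNPA1L2 (log2 -1.30) were lower than with Molib, both lost without either Molib library, without I-BET151 replicate 2 and without a filter (up to 0.22), and HNRNPA1L2 also without either JQ1 library and with the lower pseudocount. Leaving out a JQ1 library left 15 and 13 of the 25 members called against JQ1.

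**Figure D4:**
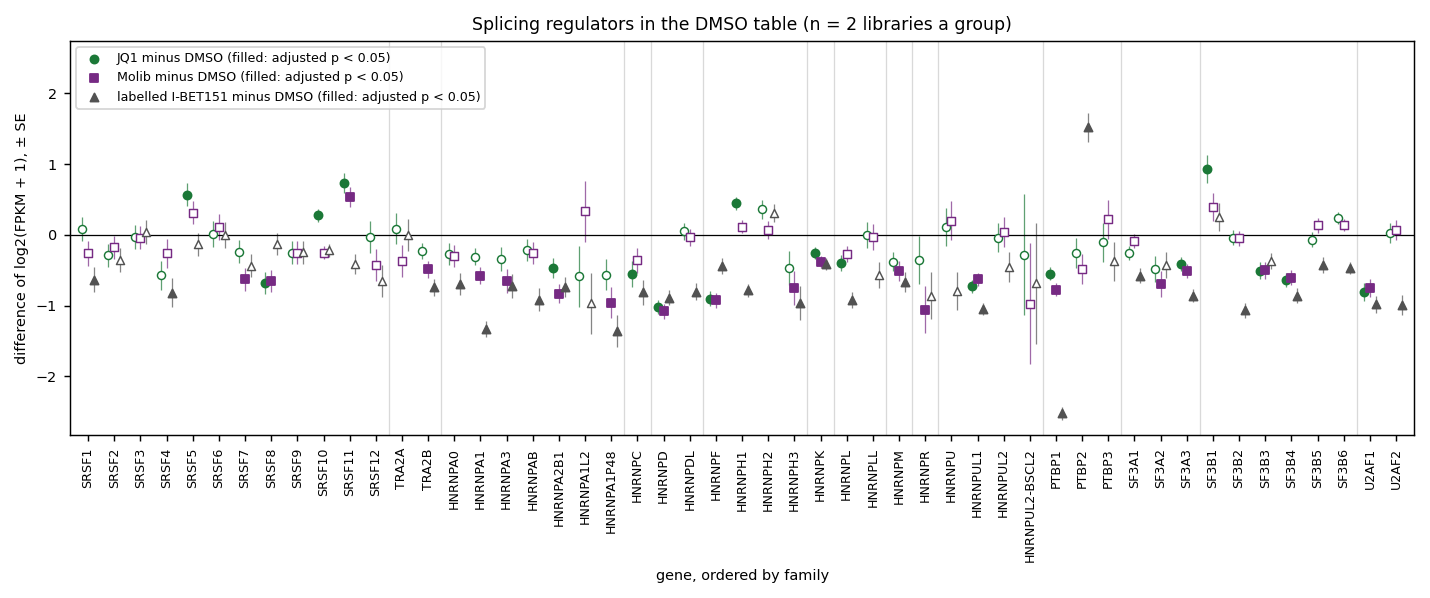
Log2 difference from DMSO with its standard error for each member tested, for JQ1, Molib and the libraries labelled I-BET151, filled where called at an adjusted p below 0.05. The 3 comparisons share the DMSO libraries. PTBP1 at -2.52 and PTBP2 at 1.52 are the extremes, both in the libraries labelled I-BET151.

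The third table repeats JQ1 at the same dose and time. None of the 49 members and none of the 13261 genes passed for JQ1 against CTRL (0% called, by limma), with 15 members and 2048 genes at an unadjusted p below 0.05. The members' median was -0.47 (log2) against -0.00 over all genes. Both JQ1 libraries lay below both CTRL libraries for 19 members and above for 6, where 19.0% of all genes were lower and 14.7% higher in that way. HNRNPD read 279 and 230 FPKM in CTRL and 105 and 118 in JQ1, U2AF1 64.1 and 49.4 against 25.6 and 11.2, and HNRNPK 352 and 305 against 180 and 217 (log2 -0.73, adjusted p = 0.16). HNRNPC overlapped at 194 and 203 against 180 and 216. SF3B6 was among the 6 above, at 102 and 108 against 180 and 217 (log2 0.91, adjusted p = 0.12).

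Library spread was wide in this table. SRSF7 read 141 and 12.0 FPKM in the 2 CTRL libraries and PTBP2 15.6 and 0.516 in the 2 JQ1 libraries. PTBP1 overlapped, at 101 and 78.8 in CTRL and 71.8 and 83.3 in JQ1. Of the 18 members called for JQ1 in the DMSO table, 14 had the same sign here, 8 of them without overlap between groups, and 3 had the opposite sign without overlap. Those 3 were SRSF10, SRSF11 and HNRNPH1, at 60.8 and 70.2 against 23.1 and 42.8 FPKM for SRSF11. Falls made up 13 of the 18 calls, and 37 of all 49 members had a negative log2 difference here. Much of the agreement in sign was therefore given beforehand. Leaving out CTRL replicate 2 gave 1 member called.

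MW_JQ1 against JQ1 called no member either, by limma, while 15.2% of all genes passed (13.5% higher and 1.62% lower), and 8 of 49 members and 3789 of 13261 genes passed at an unadjusted p below 0.05. METTL3 read 212 and 234 FPKM in MW_JQ1 and 11.8 and 0 in JQ1. Both MW_JQ1 libraries were above both JQ1 libraries for 25 members and below for 7, where 51.9% and 15.6% of all genes were. The direction over members depends on the scaling: their median was 0.31 (log2) as deposited, 0.01 under TMM and -0.43 under median scaling, and that of all genes 0.75, 0.51 and 0.15. In MW_JQ1 276 to 306 of the listed genes were at 0, against 3374 and 5287 in JQ1, and the part of this in the result was not tested. PTBP1 read 132 in both MW_JQ1 libraries, above JQ1, and HNRNPD 91.3 and 103, below it. Of the 3 members of highest level there, HNRNPK had 239 and 239.9, HNRNPC 177 and 197 and SF3B6 179.8 and 160.3 in MW_JQ1. Leaving out 1 of the CTRL or JQ1 libraries gave up to 5 calls.

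**Figure D5:**
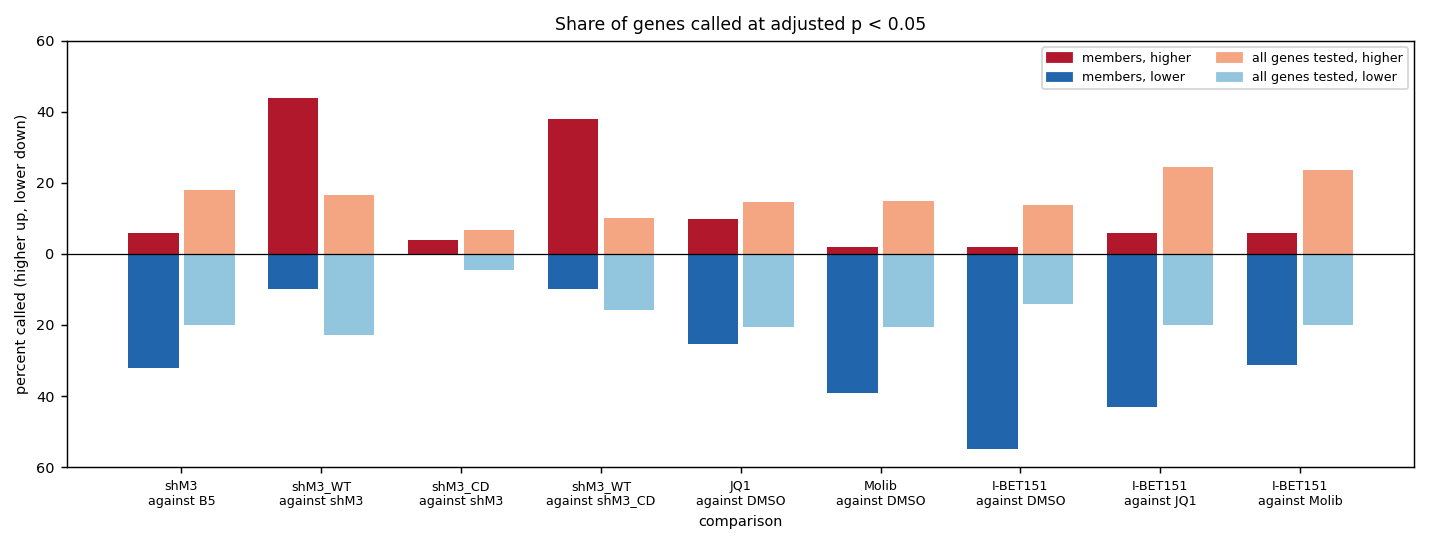
Percent of members called (adjusted p below 0.05) beside the percent of all genes tested, higher and lower, in 9 comparisons of the knockdown and DMSO tables. Members exceed all genes by the widest margin for the libraries labelled I-BET151 against DMSO, at 56.9% against 28.0%.

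The knockdown and DMSO tables share no library, so their calls can be set side by side. Of the 19 members called for shM3 against B5, 6 were also called with JQ1 (31.6% of the 19 and 33.3% of the 18), 9 with Molib (47.4% and 42.9%) and 14 with the libraries labelled I-BET151 (73.7% and 48.3%). Of all genes, 35.1%, 35.3% and 28.0% were called in those 3 comparisons, so the overlap with JQ1 lies at the background. Of the members tested, 35.3%, 41.2% and 56.9% were called there, which is the nearer measure for the overlaps with Molib and the libraries labelled I-BET151. With JQ1, HNRNPA2B1, HNRNPD, HNRNPK and HNRNPUL1 fell in both, and HNRNPH1 and SRSF11 fell with the knockdown and rose with the drug. In the libraries labelled I-BET151 13 of the 14 had the same direction and SF3B6 the opposite one. Falls made up 16 of the 19 calls of the knockdown and 28 of the 29 calls of those libraries. Most of the 14 therefore had to share a direction. SRSF4, the leading gene of the knockdown, was not called for JQ1, at 31.7 and 34.8 FPKM in DMSO and 27.3 and 17.8 in JQ1. METTL3 itself had 25.4 and 27.2 FPKM (DMSO), 20.1 and 19.2 (JQ1), 21.5 and 19.7 (Molib) and 18.3 and 13.7 (labelled I-BET151).

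Other genes of the splicing machinery were read from fixed lists. Of 6 kinases of SR proteins, 1 was called in shM3 against B5, SRPK1, which phosphorylates SR proteins in the cytoplasm. It had 58.8 and 61.7 FPKM (B5), 44.8 and 45.7 (shM3), 91.79 and 90 (shM3_WT) and 68.0 and 67.5 (shM3_CD), so all 4 groups stood apart. JQ1 raised 4 of the 6 kinases, led by CLK1, a nuclear kinase of SR proteins, from 11.5 and 12.5 to 33.2 and 24.7 (log2 1.19, adjusted p = 0.0014). Molib raised CLK1 alone (log2 0.90), and the libraries labelled I-BET151 raised none and lowered SRPK1 (log2 -0.32, adjusted p = 0.048, lost in 12 alternatives). Of all genes, 19.9% were lower with the knockdown, and 14.5% and 14.8% were higher with JQ1 and Molib. In the libraries labelled I-BET151 14.1% of all genes were lower and 13.9% higher.

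Of 12 Sm, U1 and U2 snRNP proteins, wild-type add-back raised 6 and lowered none, while JQ1 and Molib each lowered 6 and raised none and the libraries labelled I-BET151 lowered 5. Over all genes 16.7% were higher with wild-type add-back, and 20.6%, 20.5% and 14.1% were lower in the 3 drug groups. SNRPB, a core Sm protein, fell from 558 and 564 FPKM to 326 and 321 with JQ1 (log2 -0.79, adjusted p = 0.0021). Of 18 tri-snRNP and catalytic proteins, 6 rose and 2 fell with the knockdown, and 7 fell and none rose in the libraries labelled I-BET151. Of all genes 17.9% rose and 19.9% fell with the knockdown, and 14.1% fell in the libraries labelled I-BET151. Among 24 other splicing regulators, 6 fell and 1 rose with the knockdown, a share lower close to that of all genes. On that list 5 rose and 6 fell with JQ1, 3 rose and 4 fell with Molib, and 9 fell in the libraries labelled I-BET151. Of all genes 14.5% were higher with JQ1 and 14.8% with Molib, beside the shares lower given above. SFPQ, a paraspeckle protein, fell from 96.3 and 95.8 to 60.9 and 61.7 with the knockdown (log2 -0.64, adjusted p = 0.00059).

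Among 8 nuclear-retained and structured RNAs, wild-type add-back lowered 5 and raised 1, where 22.7% of all genes were lower and 16.7% higher. RN7SK, the RNA that holds P-TEFb inactive, read 12.4 and 7.66 FPKM in shM3 and 1.28 and 0.474 in shM3_WT (log2 -2.56, adjusted p = 0.0010). MALAT1 had 14.2 and 15.8 (shM3), 3.47 and 3.00 (shM3_WT) and 3.88 and 5.21 (shM3_CD). These RNAs moved with several of the comparisons above, and the labels name 2 library preparations without saying which applies to which library. Their part in the members' changes was not tested.

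Annotated decay transcripts, which the name rule did not use, were counted. In the GENCODE annotation of hg38, 33 of the 50 members tested in the knockdown table (66%) have at least 1 transcript marked for nonsense-mediated decay, against 5291 of 12025 protein-coding genes tested (44%). All 11 SRSF genes tested have one, and the family is known for poison exons that lead to this decay. The shares were not matched for the number of annotated transcripts, which is 50 for HNRNPH1 and 33 for HNRNPC. A gene with more transcripts has more chances to hold one so marked. FPKM are summed per gene, so productive and decaying transcripts cannot be told apart. For 36 of the 50, under 5% of 100-base stretches occur in another gene. The other 14 are HNRNPUL2-BSCL2 at 97.5%, U2AF1 at 89.4%, SRSF1 at 49.2%, HNRNPUL2 at 42.5%, SRSF9 at 41.6% (shared with GATC), HNRNPA1P48 at 36.1%, HNRNPA1L2 at 31.6%, SRSF2 at 23.1%, HNRNPA1 at 17.7%, HNRNPU at 12.8%, HNRNPH2 at 12.5%, HNRNPA3 at 11.04%, SF3A2 at 9.37% and HNRNPL at 8.28%. Their levels are uncertain to that extent.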

How the data were processed

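RNA-seq levels of 22 MDA-MB-231 libraries (11 groups of 2) were read from 3 tables as the authors deposited them. The FPKM unit stands in 1 file name among the deposited tables and was inferred from the values for the others. The submitters' processing notes list Cufflinks 2.2.1, HISAT2 2.1.0, CASAVA 1.4 and hg38, with no role or order. Annotation and strand setting: not given in the sources used here. One table also holds the authors' own test, per the file headers: a mean signal over samples, a log2 fold change with its error, and p-values. Its groups are not named, and none of it was used.

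Members and gene lists were chosen with earlier results of these data known. FPKM were set to log2(FPKM + 1), and each gene that reached 1 FPKM in 2 or more libraries of its table was fitted with limma 3.58.1 (R 4.3.3, lmFit and eBayes with a trend), all groups of a table together. P-values were adjusted by Benjamini and Hochberg over all genes tested, and genes below 0.05 were called. A standard error is that of the fit, and a fold is the ratio of mean FPKM. The JQ1 columns of the DMSO table match 2 samples by elimination, without replicate numbers, and are called library a and b. Levels were compared only within a table. The exact test over 2 libraries against 2 cannot pass 0.05 and was not used.

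Named were, for each comparison, up to 6 rises and 6 falls of largest size among called members whose groups do not overlap. Where fewer than 3 were called, the 3 members of highest level were named, and of each list the 2 called genes with the highest rise and the 2 with the deepest fall, of which a selection is printed. Other names were chosen after their values were seen. Alternatives were pseudocounts of 0.1 and 5, a filter of 5 FPKM or none, TMM factors (trims of 30% and 5%), equal medians, only the compared groups, the replicate number as a block, and each library left out. The fit was tested on simulated data. Python 3.11.15 with pandas 2.3.3 and matplotlib 3.10.9 did the rest.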

Additional observations from a re-analysis of the deposited data

Results flagged for a closer look

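HNRNPH1 was picked out because its effect differed between JQ1 and the libraries labelled I-BET151, both at 0.5 µM per the labels. It was 1.231 lower on the log2(FPKM + 1) scale in the libraries labelled I-BET151 than in JQ1 (a difference of -1.231, tested), having risen by 0.4461 over DMSO with JQ1 and fallen by 0.785 in the libraries labelled I-BET151.

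For 3 members JQ1 moved every library one way in the DMSO table and the opposite way in the CTRL table. The log2 differences from the control were -1.279 in the CTRL table and 0.4461 in the DMSO table for HNRNPH1, -1.263 and 0.2782 for SRSF10, and -1.032 and 0.737 for SRSF11. The difference between the tables was not tested, since they were made separately. In the CTRL table the libraries of a group correlated at 0.746 (CTRL) and 0.777 (JQ1), against at least 0.977 elsewhere, and the part of this in the opposite signs was not tested.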

How the results depend on the processing

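With 2 libraries a group, many calls rest on 1 of them, and FPKM carry no read depth, so no counting error could be set. Over the alternatives, 155 of 189 counts of called members stayed within 1.5 times the reported count and 34 moved. Of 1398 log2 differences of named members 1235 kept their direction and their side of the threshold, 151 lost the call, 2 gained it and 10 changed sign. With a library left out, the count of called members ranged from 6 to 16 for shM3 against B5 (19 with all libraries), 15 to 29 for shM3_WT against shM3 (27), 0 to 5 for shM3_CD against shM3 (2), 8 to 24 for shM3_WT against shM3_CD (24), 7 to 28 for JQ1 against DMSO (18), 9 to 26 for Molib (21), 17 to 32 for the libraries labelled I-BET151 (29), 13 to 26 for these against JQ1 (25), 14 to 26 against Molib (19), 0 to 1 for JQ1 against CTRL (0) and 0 to 5 for MW_JQ1 against JQ1 (0). Without a filter 1 member was called for shM3_CD against shM3. Leaving out both libraries labelled I-BET151 gave 28 for JQ1 against DMSO, an alternative added after seeing the data. For MW_JQ1 against JQ1 TMM factors gave 1 and only the compared groups 3. The cause was not tested.

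Values near 0 changed sign. SRSF9 for JQ1 against Molib went from -0.0007675 to 0.007975 under TMM, and from -0.06722 to 0.06569 with a library left out. HNRNPC for JQ1 against CTRL went from -0.007594 to 0.1527 under TMM and 0.1691 under equal medians, and from -0.1412 to 0.126 with a library left out. HNRNPK for MW_JQ1 against JQ1 went from 0.2758 to -0.03073 under TMM and -0.4826 under equal medians. HNRNPC there ranged from -0.2142 to 0.05299 with a library left out.

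No shared effect of the replicate number was seen: deviations of libraries with the same number correlated from -0.0306 to 0.0349 between groups of the knockdown table. Such correlations cannot show whether libraries of the same number were handled together. With the number as a replicate block 17 members were called for shM3 against B5, 26 for shM3_WT against shM3, 2 for shM3_CD against shM3, 18 for shM3_WT against shM3_CD, 19 for Molib, 25 for the libraries labelled I-BET151, 21 for these against Molib, and 0 for JQ1 against CTRL and for MW_JQ1 against JQ1. For DMSO and the libraries labelled I-BET151 the correlation was -0.1225, and the crossed pairing gave 25 calls. The JQ1 columns of the DMSO table carry no numbers, so no block could be fitted there.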

Other observations

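Some genes on the fixed lists of splicing factors and nuclear RNAs moved outside the set described above, each under every alternative. RBMX, an HNRNP-type protein encoded on the X chromosome, rose with METTL3-WT add-back (log2 1.07, adjusted p = 0.0033) and fell with JQ1 (-0.87, adjusted p = 0.0041), with Molib (-0.93, adjusted p = 0.0030) and in the libraries labelled I-BET151 (-1.09, adjusted p = 0.0023). MBNL2, a muscleblind protein, fell with METTL3-WT add-back (-1.06, adjusted p = 0.00094). SNW1, a component of the active spliceosome, rose with the knockdown (0.90, adjusted p = 0.0024). PNN, a nuclear speckle protein, went from 34.1 and 33.3 FPKM in DMSO to 12.8 and 16.0 in the libraries labelled I-BET151 (-1.18, adjusted p = 0.0028). NEAT1, the RNA scaffold of paraspeckles, went from 1.71 and 3.69 FPKM in DMSO to 14.2 and 23.5 with JQ1 (2.44, adjusted p = 0.0027) and rose with Molib (2.02, adjusted p = 0.0055). RN7SK rose in the libraries labelled I-BET151 (1.65, adjusted p = 0.00078). All p-values are limma's, adjusted over all genes tested.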
